A study of Mus musculus with 12 samples.

Results

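Subcutaneous TC2Ras tumors that grew from cancer cells mixed with adipose-derived mesenchymal/stromal cells (ASCs) were compared with tumors that grew from the cancer cells alone, in mice drinking water without inorganic arsenic (iAs). TC2Ras is a mouse prostate cancer cell line driven by Ras. The comparison set 6 of the 12 tumor libraries of the series against each other. The filter on low counts, the scaling of the libraries and the estimate of the spread used all 12 libraries. Its members were the 20818 of 55401 genes in the count table that passed this filter. The Control group received 125000 TC2Ras cells under the skin of both flanks, and in the ASC group 1% of the implanted cells were ASC-GFP cells, which are stromal cells from the adipose tissue of male C57BL/6 mice. The As300 and ASC_As300 groups received the same implants, without and with ASC-GFP cells, and drank water with 300 ppb iAs. All mice ate low-arsenic chow, with Milli-Q water to drink before implantation, all tumors were taken at day 21, and each library combined the left and the right tumor of 1 mouse, so that the 3 libraries of a group stand for 3 mice. The sample labels name stromal cells as the cell type, while the protocols describe whole tumors, and the libraries are described here as tumors. No GFP transcript is among the genes of the table, so the implanted ASCs could not be followed directly.

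The 6 libraries held 39157647 to 49479733 counts each, and the TMM factors of all 12 libraries lay between 0.953 and 1.05. Levels are given as CPM, the count of a gene scaled to the TMM-adjusted total of its library, with 3 tumors in each group. A gene was called when edgeR's quasi-likelihood F test gave a Benjamini-Hochberg adjusted p under 0.05 over all genes tested and the change was at least 1.5-fold. All adjusted p-values given here come from that test. They measure the spread between tumors of different mice, and an exact test of 3 against 3 tumors could not give a p under 0.1. Some tumors stood apart from the others of their group. Control replicate 1 carried B cell and lymph node transcripts (Cd79a, a part of the B cell receptor, 47.0 CPM against 0.998 and 1.82 in the other Control tumors), Control replicate 2 carried skeletal muscle transcripts (the myosin gene Myh4, 539 CPM against 0 and 0.998), and ASC replicate 2 carried adipocyte transcripts (Adipoq, 54.9 CPM against 1.21 and 1.65) and had the lowest total. Values without these tumors are given beside the results that they changed most.

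Interferon-gamma is a cytokine released by activated T cells and natural killer cells. Its receptor signals through the kinases JAK1 and JAK2 to a short palindrome in DNA known as the GAS element, and further factors such as IRF1 are switched on. IRF1, and complexes with STAT2 and IRF9 that carry the type I interferon signal, bind the interferon-stimulated response element (ISRE). Cells that receive the signal raise antigen presentation and make families of GTPases that attack intracellular microbes, and in tumors they also raise inhibitory ligands such as PD-L1.

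Nearly all genes called between ASC and Control tumors were higher in ASC tumors. Of the genes tested, 147 were called higher, which is 0.706%, and 3 were called lower, which is 0.0144%. The number called lower depended on the processing, with 77 by DESeq2 and 57 without ASC replicate 1. Genes of the interferon response led, with Gbp2, Igtp and Irf1 having the 3 smallest p-values. The genes called higher changed by 1.5-fold to 36.2-fold with a median of 2.57-fold, and 106 of them changed by at least 2-fold, 34 by at least 4-fold and 10 by at least 8-fold. All 150 called genes had groups that did not overlap, a pattern that 9.94% of all genes tested showed in the higher and 9.01% in the lower direction. The test that called them used the same values, so this pattern is no separate support for the calls. The median level of the genes called higher over the 6 Control and ASC tumors was 33.6 CPM, against 9.0 CPM over all genes tested. That level includes the ASC tumors, in which these genes were selected for being high. The median log2 fold change over all genes was -0.00. Without a minimum fold change, 162 genes had an adjusted p under 0.05. At an unadjusted p under 0.05, 1779 genes were higher and 1431 lower.

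**Figure D1:**
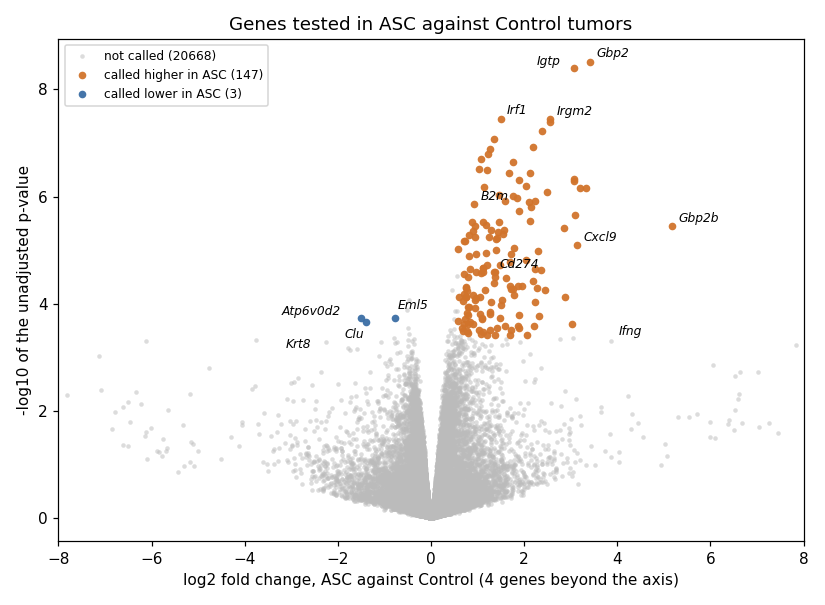
Each point is a gene tested, with the log2 fold change of ASC against Control on the x axis and -log10 of the unadjusted p on the y axis. The 147 genes called higher (orange) lie on the right with Gbp2 and Igtp at the top, and the 3 called lower (blue) lie low on the left.

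The calls did not weigh equally on every tumor. Of the 147 genes called higher, 83 were called again in each of the 6 fits that left out 1 Control or ASC tumor, and 63 were called under all 21 alternative settings. In every setting in which they were tested they were higher in ASC tumors. These settings reused the same tumors, and groups that do not overlap can hardly change direction when 1 tumor is left out. Without ASC replicate 2 the number of genes called higher was 100, and without ASC replicate 1 it was 298. A fit of the 6 Control and ASC tumors alone tested 19276 genes and called 87 higher, of which 84 were among the 147. None of the 3 genes called lower was kept in each of the 6 fits. All 3 lost the call without Control replicate 1.

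**Figure D2:**
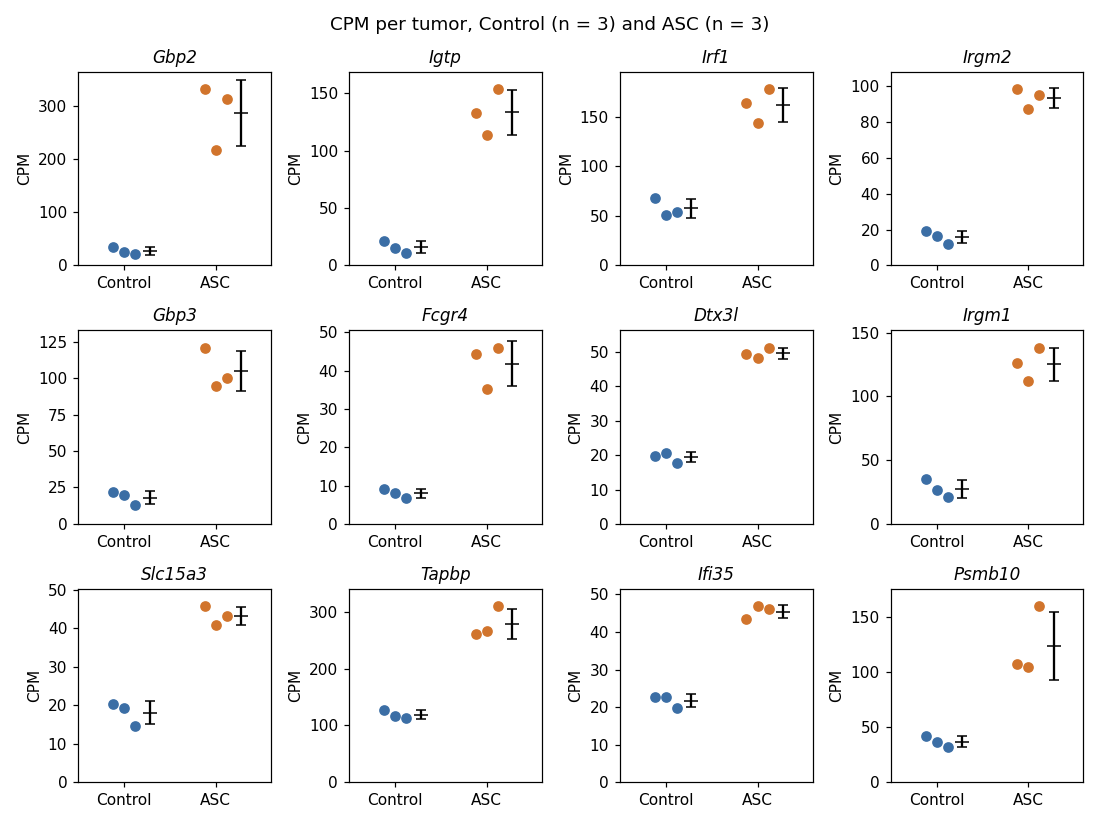
CPM in each tumor (points, Control in blue and ASC in orange) and the mean with its SD (black) for the 12 genes called higher with the smallest p, on linear axes that start at 0. In all 12 genes the lowest ASC tumor lies above the highest Control tumor.

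The path from interferon-gamma to its targets was examined first. Ifng itself, the cytokine, was close to the limit of detection in the Control tumors, where its raw counts were 5, 12 and 4. In the ASC tumors they were 114, 64 and 96. All Control tumors were at or under the floor of 12 counts, so ASC tumors were at least 8.48-fold higher, but the adjusted p was 0.0563 and the gene was not called. The receptor chains were level, with Ifngr1 at 68.0 ± 6.45 CPM in Control and 70.1 ± 5.85 CPM in ASC tumors (SD, n = 3 each) and a log2 fold change of 0.04, and Ifngr2 at 0.13. The kinases Jak1 (-0.17) and Jak2 (0.02) were not called either.

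The transcription factors downstream were higher. Irf1 stood at 68.1, 50.7 and 53.5 CPM in Control tumors and at 164, 143 and 177 CPM in ASC tumors. Every ASC tumor thus had at least 143 CPM and no Control tumor more than 68.1, and the log2 fold change was 1.49 ± 0.12 (SE, adjusted p = 0.000167). Stat2 (1.11) and Irf9 (0.74), which act together at the ISRE, rose as well, and so did Irf7 (1.41), a factor of the type I interferon response. The call of Irf7 was kept in only 1 of the 6 fits that left out 1 Control or ASC tumor, those of Stat2 and Irf9 in all 6. The adjusted p of Irf7 was 0.137 without ASC replicate 2 and 0.0505 without Control replicate 1. Feedback inhibitors were among the calls: Socs1, which blocks JAK signaling, rose by 1.45 on the log2 scale, and Il18bp, which neutralizes interleukin-18, also by 1.45. In all, 7 of the 21 tested genes of this path were called higher and none lower, with a median log2 fold change of 0.64. The fit without Control replicate 1 called 8, with a median of 1.03.

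The guanylate-binding proteins (GBPs), large GTPases that assemble on the membranes of intracellular microbes, held the gene with the smallest p and the gene with the largest fold change among the called genes. Gbp2 stood at 34.6, 25.4 and 20.8 CPM in Control tumors and at 331, 217 and 313 CPM in ASC tumors. The groups were far apart, with ASC replicate 2 the lowest of the ASC tumors, and the log2 fold change was 3.41 ± 0.23 (adjusted p = 4.22e-05). Gbp2b was nearly silent in Control tumors, at 0.496, 0.518 and 0.108 CPM, and reached 21.3, 6.97 and 12.9 CPM in ASC tumors. Its log2 fold change of 5.18 ± 0.66 was the largest of the 150 called genes, and here too ASC replicate 2 was the lowest ASC tumor. Gbp3, Gbp4, Gbp5, Gbp6 and Gbp7 rose by 1.89 to 2.54 on the log2 scale. Of the 11 GBP genes tested, 7 were called higher, and all 11 had groups that did not overlap. The median log2 fold change was 2.22, with Gbp8, Gbp9, Gbp10 and Gbp11 between 0.72 and 2.76 and not called. GBP genes resemble each other, so reads may be divided among members of the family with some error.

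The immunity-related GTPases (IRGs), smaller GTPases that attack the vacuoles of intracellular parasites, moved to a similar extent. Igtp stood at 21.3, 15.4 and 11.2 CPM in Control tumors and at 133, 113 and 153 CPM in ASC tumors, a log2 fold change of 3.06 ± 0.21 (adjusted p = 4.22e-05). Irgm2 was at 19.1, 16.3 and 12.2 CPM and at 98.1, 87.3 and 94.8 CPM (log2 fold change 2.56 ± 0.21). For both genes the 3 ASC tumors lay close together and far above the Control tumors. Irgm1, which regulates the other IRGs, rose by 2.18, and Iigp1, Tgtp1, Tgtp2 and Gm12185 rose by 3.07 to 3.20. Tgtp1 and Tgtp2 are near-identical neighbors, and their separate values are uncertain. Of the 13 IRG genes tested, 9 were called higher, with a median log2 fold change of 2.56, and the same number was called without Control replicate 1 and without ASC replicate 2.

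Both interferon elements were found by their letters in the promoters of 5 of 7 called IRG genes and 2 of 5 called GBP genes that have a promoter entry. The promoters were searched on both strands for the GAS letters TTCNNNGAA and the ISRE letters GAAA, any 2 bases and GAAA again, from 250 bases before to 50 bases after the RefSeq start sites (assembly GRCm38.p6). The stretches below are shown because 5 IRG genes carry both elements side by side in nearly the same sequence, with the matched letters in capitals. Each is written 5′ to 3′ in the direction of its gene.
Igtp: ccatTTCTAGGAActGAAACTGAAAgctg
Irgm2: ccatTTCCAGGAActGAAACTGAAAgctg
Tgtp1: ccatTTCCAGGAAtcGAAACTGAAAccta
Tgtp2: ccatTTCCAGGAAtcGAAACCGAAAccta
Gm12185: ccatTTCCAGGAAtaGAAAGTGAAAccta
All 5 lie on chromosome 11, Igtp at chr11:58199507-58199535 and Irgm2 at chr11:58214898-58214926 on the plus strand, Tgtp1 at chr11:48992310-48992338, Tgtp2 at chr11:49064269-49064297 and Gm12185 at chr11:48927244-48927272 on the minus strand. The end of the ISRE letters lay 24 bases before the start site of Igtp, 54 before that of Irgm2, and 60 to 67 before those of the other 3. Other called genes carried 1 of the elements, as these 4 stretches show.
Gbp2: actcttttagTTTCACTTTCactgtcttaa
Gbp2b: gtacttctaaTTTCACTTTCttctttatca
B2m: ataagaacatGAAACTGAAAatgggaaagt
Irf1: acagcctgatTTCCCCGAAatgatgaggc
Gbp2 (chr3:142620594-142620623) and Gbp2b (chr3:142594700-142594729), both on the plus strand, hold the same form of the ISRE letters in the reverse direction. B2m (chr2:122147538-122147567, plus strand) holds them in the forward direction, and Irf1 (chr11:53769914-53769942, plus strand) holds the GAS letters 81 bases before its start site.

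Over all genes called higher, 108 of 147 had a promoter in the RefSeq table. The ISRE letters were present in 40 of them (37.0%), against 502 of the 12904 promoters of all genes tested (3.89%). The GAS letters were present in 21 (19.4%), against 1084 (8.40%), and both in 12 (11.1%), against 0.589%. By group, the ISRE letters stood in 5 of 5 called GBP genes with a promoter entry, 6 of 7 IRG genes, 6 of 11 antiviral genes and 4 of 8 MHC class I genes, and in none of 3 MHC class II genes. These matches describe letters in a window and do not show that a factor was bound.

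The called genes were also close to each other in the genome. In the order of RefSeq genes, 35 of the 146 genes called higher that could be placed (24%) stood directly beside another one among the tested genes, against 276 of 17999 genes tested (1.53%). They formed 13 runs. The longest, of 5 genes each, were Gbp5, Gbp7, Gbp3, Gbp2b and Gbp2, and in the MHC region H2-DMb1, Psmb9, Tap1, Psmb8 and Tap2. Shorter runs held Parp14, Dtx3l and Parp9, the complement genes C1qb, C1qc and C1qa, the chemokines Ccl3 and Ccl4, and Ido2 and Ido1. Neighboring members of a family can share reads, so such neighbors are not independent measurements.

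Antiviral genes, which respond to type I as well as type II interferon, had smaller changes than the GTPases. All 34 antiviral genes tested were higher in ASC tumors, 16 of them called, with a median log2 fold change of 1.25 and a range of 0.27 to 2.13. Zbp1, a sensor of Z-form nucleic acid that can trigger cell death, stood at 18.0, 18.1 and 10.1 CPM in Control and at 59.5, 72.9 and 70.1 CPM in ASC tumors (log2 fold change 2.13 ± 0.22, adjusted p = 0.00048). The ubiquitin ligase gene Dtx3l and its partner Parp9 rose by 1.35 and 1.20, and Dtx3l was nearly constant within each group, at 17.9 to 20.7 CPM in Control and 48.2 to 51.2 CPM in ASC tumors. Isg15, a ubiquitin-like modifier, rose by 1.51 and Ifit3, which binds viral RNA and has a near-identical neighbor in Ifit3b, by 1.49. Mx1 (1.18, adjusted p = 0.13), Rsad2 (1.21) and Usp18 (1.3), typical targets of type I interferon, were not called, although their changes were close to the list median. Of all 34 genes, 33 had an unadjusted edgeR p under 0.05 in the higher direction, against 1779 of the 20818 genes tested. In 30 of the 34 every ASC tumor lay above every Control tumor, against 9.94% of all genes tested. The number called was 13 without Control replicate 1 and 12 without ASC replicate 2. Ifit2 was uneven within the Control group, at 30.6, 39.4 and 0.933 CPM, and was not called.

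**Figure D3:**
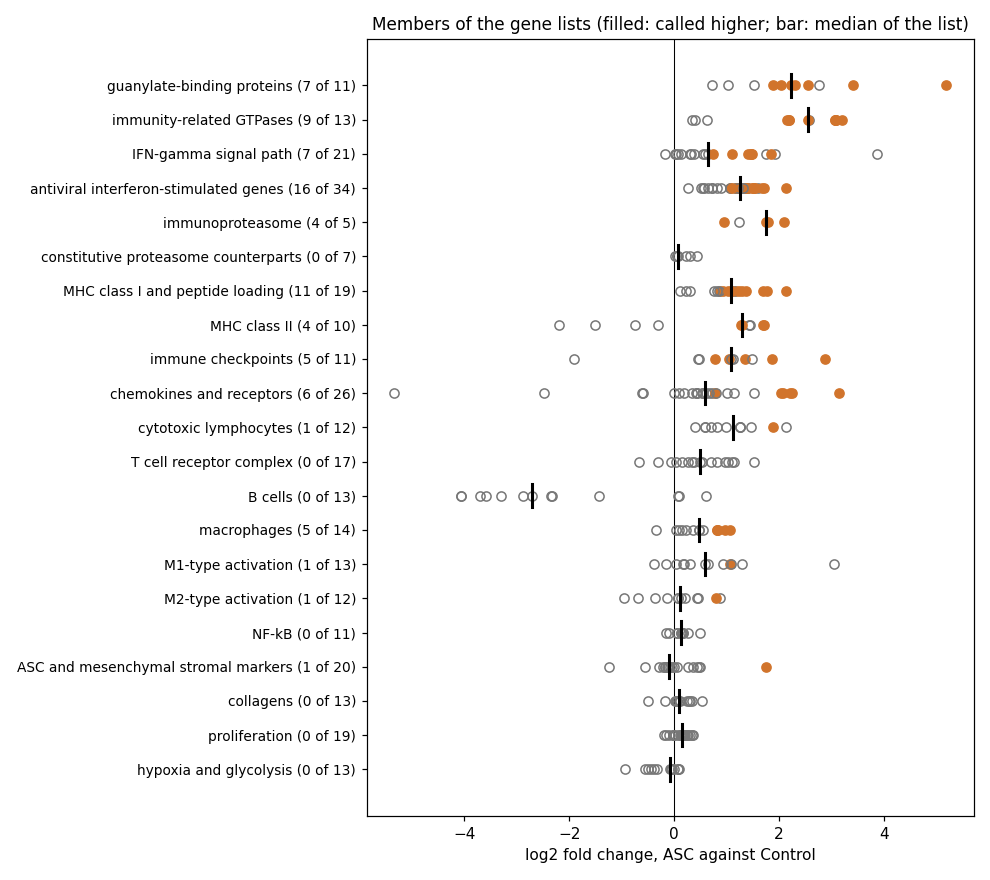
Log2 fold change of ASC against Control for the members of 21 gene lists (1 point per gene, filled orange where called higher, with the median of each list as a black bar and the number called of the number tested beside its name). GBP and IRG genes lie farthest to the right, while the constitutive proteasome, NF-kB, stromal, collagen and proliferation genes lie around 0.

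Antigen presentation by MHC class I, which shows peptides from inside the cell to CD8+ T cells, was higher at several steps. B2m, the light chain shared by all class I molecules, had the highest CPM of the called genes, with 689, 612 and 561 CPM in Control and 1146, 1207 and 1180 CPM in ASC tumors. The groups were clearly apart, and the log2 fold change was 0.92 ± 0.11 (adjusted p = 0.000932). The heavy chains H2-K1 (1.36) and H2-D1 (1.17) rose, as did the nonclassical H2-T22 and H2-T23. H2 genes share sequence, and the division of reads among them is uncertain. Of the loading machinery, the peptide transporter subunits Tap1 (2.13) and Tap2 (1.70), the bridging protein Tapbp (1.23), its relative Tapbpl (1.29) and the trimming peptidase Erap1 (0.87) rose, and so did Nlrc5 (1.78), the transactivator of class I genes. Tapbp was at 127, 116 and 113 CPM in Control and at 260, 265 and 309 CPM in ASC tumors. Calr (0.31) and Pdia3 (0.12), general chaperones of the endoplasmic reticulum, were not called. Altogether 11 of 19 genes were called higher, with a median of 1.08.

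The proteasome, which makes the peptides, changed in its interferon-induced subunits. Psmb8, Psmb9 and Psmb10, the catalytic subunits of the immunoproteasome, rose by 1.78, 2.10 and 1.75 on the log2 scale. Psmb10 stood at 41.7, 36.5 and 32.1 CPM in Control and at 107, 105 and 159 CPM in ASC tumors, with ASC replicate 3 the highest. The activator subunit Psme1 rose by 0.96, and Psme2 (1.24, adjusted p = 0.0885) was not called. Psmb5, Psmb6 and Psmb7, the subunits that these 3 replace, had log2 fold changes of 0.44, 0.29 and 0.07 and were not called. Thus 4 of 5 immunoproteasome genes were called, with a median of 1.75, and none of 7 constitutive counterparts, with a median of 0.07.

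MHC class II, which presents extracellular peptides to CD4+ T cells and is made by macrophages, dendritic cells and B cells, depended on the tumors included. H2-Ab1 stood at 197, 71.0 and 57.4 CPM in Control and at 346, 325 and 380 CPM in ASC tumors. The ASC tumors lay together, while Control replicate 1 was far above the other Control tumors. The log2 fold change was 1.69 ± 0.35 (adjusted p = 0.0495), and 2.46 (adjusted p = 2.76e-05) without Control replicate 1. H2-Eb1 (1.72), H2-DMa (1.3) and H2-DMb1 (1.27) were called too, and Cd74 (1.43, adjusted p = 0.1), the invariant chain, was not. In this list 4 of 10 genes were called higher, with a median of 1.28. Without Control replicate 1 it was 6, and without ASC replicate 2 none. Ciita, the master regulator of class II genes, had a log2 fold change of -0.32 and was at 23.9 CPM in Control replicate 1 and at 4.55 and 2.69 CPM in the other Control tumors. B cells also make class II molecules, and the part of the B cell transcripts of Control replicate 1 in these values was not tested.

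Among chemokines, the ligands of CXCR3, which draw activated T cells and natural killer cells, were higher in ASC tumors. Cxcl9 stood at 26.5, 12.1 and 12.1 CPM in Control and at 173, 146 and 127 CPM in ASC tumors, a log2 fold change of 3.14 ± 0.43 (adjusted p = 0.00305). Cxcl10 was at 20.7 to 25.6 CPM and at 84.6 to 107 CPM (2.04 ± 0.22). Their receptor Cxcr3 itself was low in both groups, at 1.71 ± 0.818 CPM and 2.33 ± 0.484 CPM (SD, n = 3 each), and was not called. Ccl3 (2.07) and Ccl4 (2.24), made by macrophages and T cells, rose, and so did the receptor gene Cxcr6 (2.20), which is found on resident T cells. The calls of Cxcl9 and Cxcl10 were kept in each fit without 1 Control or ASC tumor, and those of Ccl3, Ccl4 and Cxcr6 were not. In the whole list 6 of 26 genes were called higher, with a median of 0.58, and 4 without Control replicate 1 and likewise 4 without ASC replicate 2. Of the 26 genes, 21 were higher and 5 lower in ASC tumors, with log2 fold changes from -5.33 to 3.14. None was called lower.

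Immune checkpoints, pairs of ligands and receptors that restrain T cells, were higher on both sides. The ligand Cd274 (PD-L1) stood at 14.5, 12 and 8.72 CPM in Control and at 31.4, 31.2 and 27.0 CPM in ASC tumors. The groups did not overlap, and the log2 fold change was 1.35 ± 0.21 (adjusted p = 0.00708). Its receptor Pdcd1 (PD-1) was at 1.59, 0.652 and 0.955 CPM and at 8.06, 5.79 and 9.65 CPM (2.88 ± 0.50, adjusted p = 0.0153). Lag3, a receptor of exhausted T cells, rose by 1.87, Havcr2 (TIM-3) by 1.05 and its ligand Lgals9 by 0.78. Ctla4 (0.45) and Tigit (1.09, adjusted p = 0.0979) were not called. Of 11 genes 5 were called, with a median of 1.09. Without ASC replicate 2 only 3 of them passed, with Lag3 at an adjusted p of 0.0712 and Lgals9 at 0.104. Over the 6 fits that left out 1 Control or ASC tumor, the call of Cd274 was kept in all 6 and that of Havcr2 in 5. Pdcd1 was called in 3 of the 6, with an adjusted p of up to 0.0903, and Lag3 and Lgals9 in 2 each.

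Ido1, which degrades tryptophan and so limits T cells, was at 0.289, 0.269 and 0.282 CPM in Control and at 3.20, 2.41 and 1.24 CPM in ASC tumors (3.02 ± 0.59, adjusted p = 0.0359). Its neighbor Ido2 rose by 1.89. Both levels were low, and without Control replicate 1 both calls were lost, with adjusted p-values of 0.0668 for Ido1 and 0.0619 for Ido2. Ido1 also lost the call without ASC replicate 2 (0.0861). The tryptophan tRNA ligase Wars, another interferon target, had an adjusted p of 0.00801 but stayed under the minimum fold change, at 0.56 on the log2 scale. The later enzymes Kmo (-0.41), Kynu (0.13) and Haao (-1.54) were not called. In this list 2 of 7 genes were called higher, with a median of 0.30, and none without Control replicate 1, with a median of 1.6.

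Markers of the lymphocytes that make interferon-gamma were compared next. In whole tumors fewer cells of a type cannot be told apart from less RNA per cell. Of 17 genes of the T cell receptor complex none was called, with a median log2 fold change of 0.49. The Control group was split: Cd8a, a chain of the CD8 co-receptor, stood at 15.8, 2.32 and 1.74 CPM, against 14.9, 10.9 and 16.9 CPM in ASC tumors. Cd3e was at 7.21, 1.06 and 0.325 CPM and at 3.97, 5.25 and 8.20 CPM. In both genes Control replicate 1 lay within the range of the ASC tumors and the other Control tumors below them. Summed over the 17 genes, Control replicate 1 was above every ASC tumor, at 150 CPM against 87.0, 102 and 112.5 CPM. The other Control tumors were at 32.7 and 27.9 CPM. Without Control replicate 1, 9 of the 17 genes were called higher, with a median of 1.68, while Cd4 had a log2 fold change of -0.00. This setting leaves 2 Control tumors, and the part of the lymph node transcripts of Control replicate 1 in the T cell values was not tested.

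Of 12 genes of cytotoxic lymphocytes, all were higher in ASC tumors, with a median of 1.12, and 1 was called. That gene was Klrc1 (NKG2A), an inhibitory receptor of natural killer and CD8+ T cells, which rose by 1.88 (adjusted p = 0.0405) and lost the call without Control replicate 1 (0.066) and without ASC replicate 2 (0.0633). The granule protein gene Nkg7 was at 4.71, 2.13 and 1.08 CPM and at 8.46, 9.03 and 17.1 CPM (2.13, adjusted p = 0.073), and the protease gene Gzmb at 5.03 to 7.71 CPM and 11.5 to 15.0 CPM (1.00, adjusted p = 0.0951). Both had groups that did not overlap without passing the test. Summed over the list, the level was 24.6 to 40.6 CPM in Control and 54.4 to 71.2 CPM in ASC tumors. None of 10 genes of natural killer cells was called (median -0.11), with Ncr1, their defining receptor, at -0.51, and none of 9 genes of regulatory T cells (median 0.26), with Foxp3 at 0.13.

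**Figure D4:**
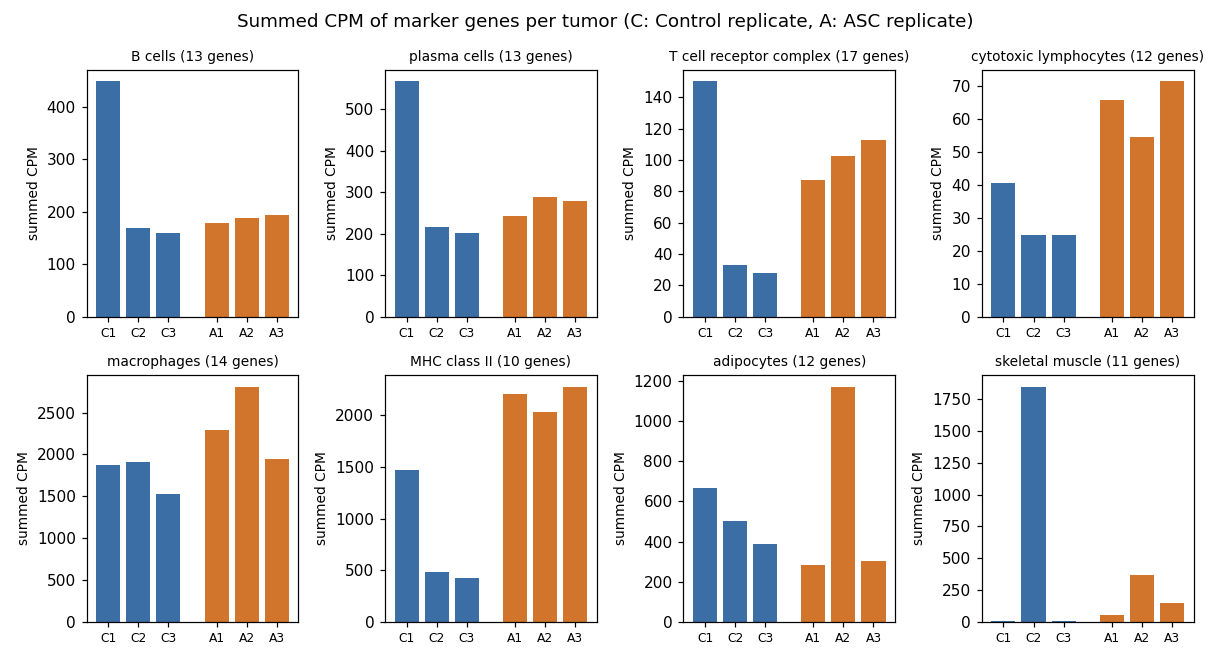
Summed CPM of 8 marker lists in each tumor (bars from 0, Control in blue and ASC in orange). Control replicate 1 is highest for B cells, plasma cells and the T cell receptor complex, Control replicate 2 for skeletal muscle and ASC replicate 2 for adipocytes, while MHC class II and cytotoxic genes are higher in all 3 ASC tumors.

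B cell genes were not called. Their sum was 448 CPM in Control replicate 1 and 160 to 193 CPM in the other 5 tumors, and the median log2 fold change over 13 genes, -2.72, became 0.34 without Control replicate 1. None was called in either fit. Plasma cell genes (13 tested, median -1.13) followed the same tumor, at 567 CPM against 202 to 287 CPM. None was called, while without Control replicate 1 the median was 1.94 and Ighm, the heavy chain of immunoglobulin M, was called higher (1.54, adjusted p = 0.0266). Mast cell (8 tested, median 0.69), dendritic cell (12 tested, 0.24) and neutrophil genes (8 tested, -0.37) were not called either. Without Control replicate 1 the neutrophil median was 0.79 with no call, and the dendritic median was 0.55 with Itgax, the integrin chain CD11c, called higher (1.13, adjusted p = 0.0311). Ighm and Itgax are named after their values were seen.

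Macrophage genes moved in part. C1qa, C1qb and C1qc, the chains of complement C1q that tissue macrophages make, rose by 0.81, 0.83 and 0.81 on the log2 scale. C1qa stood at 183, 190 and 159 CPM in Control and at 285, 366 and 284 CPM in ASC tumors (adjusted p = 0.00221). Fcgr1, the high-affinity receptor for immunoglobulin G, rose by 1.07 and Aif1, a calcium-binding protein of macrophages, by 0.97. Aif1 lost the call without ASC replicate 2 (adjusted p = 0.0712). Csf1r (0.23), Adgre1 (0.55), Itgam (0.03) and Lyz2 (0.10), which mark most macrophages, were not called, and Lyz2 was at 751 ± 70.6 CPM and 805 ± 210 CPM (SD, n = 3 each). So 5 of 14 genes were called, with a median of 0.48. Outside this list Fcgr4, another activating immunoglobulin receptor of myeloid cells, rose from 9.13, 8.10 and 6.79 CPM to 44.5, 35.2 and 46.0 CPM (2.39 ± 0.21, adjusted p = 0.000209). The lysosomal protease gene Ctss rose by 0.95, and the lysosomal transporter gene Slc15a3 by 1.26.

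The gene lists of the classical activation states of macrophages were not tested against each other. Of 13 genes of M1-type activation 1 was called, Fcgr1, which is also in the macrophage list, and the median was 0.59. Acod1, which makes itaconate in activated macrophages, was at 0.868, 1.09 and 0.152 CPM and at 5.79, 7.13 and 4.75 CPM (3.05, adjusted p = 0.0535) and was not called. Of 12 genes of M2-type activation 1 was called, Tgm2 (0.80), and the median was 0.11. Without ASC replicate 2 the medians were 0.33 for M1-type and -0.29 for M2-type genes, and without Control replicate 1 they were 0.96 and -0.01. Of 11 NF-kB genes none was called (0.13), of 14 genes of inflammasomes and cell death only Zbp1 (0.37), and of 13 complement genes of other kinds none (0.37).

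The study measured or named a set of genes, which are not independent evidence since they were chosen on these tumors. Of the 20 tested, 7 were called higher: Irf1, Cd274, Pdcd1, Lag3, Cxcr6, Klrc1 and Ccl3. The median was 0.71. Il1b, an inflammatory cytokine, was at 7.95 ± 1.62 CPM in Control and 12 ± 4.43 CPM in ASC tumors (adjusted p = 0.389). Nos2, the inducible nitric oxide synthase, was at 4.94 ± 1.70 CPM and 9.37 ± 4.43 CPM (0.385), Arg1 at 45.0 ± 10.7 CPM and 47.4 ± 16.5 CPM (0.932), and Tgfb1 at 79.7 ± 5.29 CPM and 98.4 ± 8.95 CPM (0.137, SD and n = 3 throughout). The groups of Il1b, Nos2 and Arg1 overlapped. The regulators Stat3 (0.08), Rela (0.12), Ikbkb (-0.11), Irf8 (0.58), Tcf3 (0.10), Pou2f2 (0.62) and Pax5 (-2.32) and the receptor gene Klrc2 (0.81) were not called. Irf8 was called without Control replicate 1 (0.97, adjusted p = 0.0141), where Pax5, a B cell factor, had a log2 fold change of 1.28 (adjusted p = 0.422).

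Markers of the implanted cell type showed no rise as a group. Of 20 genes of ASCs and other mesenchymal stromal cells 1 was called, and the median was -0.10. Pdgfra, a receptor of mesenchymal progenitors, was at 78.6, 105 and 127 CPM in Control and at 113, 97.3 and 90.1 CPM in ASC tumors, and Dcn, a matrix proteoglycan of fibroblasts, at 693 to 966 CPM and 748 to 825 CPM. In both genes the ASC tumors lay within the range of the Control tumors. The called gene was Ly6a (Sca-1), which mouse stromal cells carry and which interferon also induces in other cells, at 73.3, 74.7 and 53.5 CPM and at 196, 263 and 221 CPM (1.75 ± 0.20, adjusted p = 0.000781). Its neighbor Ly6c1 rose by 1.43. Of 12 factors that ASCs secrete none was called (median -0.23), and Spp1 (osteopontin), at 449 to 657 CPM and 275 to 367 CPM, did not pass (-0.79, adjusted p = 0.0533). Collagens (13 tested, 0.09) and endothelial genes (10 tested, 0.20) had no call, and neither had adipocyte genes (12 tested, 0.17), whose summed level was 386 to 666 CPM in Control, 284 and 303 CPM in 2 ASC tumors and 1171 CPM in ASC replicate 2. Without ASC replicate 2 the adipocyte median was -2.28, and Fabp4, a lipid carrier of adipocytes named after its values were seen, was called lower (-1.65, adjusted p = 0.0215).

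Genes of the tumor cells were few to judge. Epithelial genes were low, and 7 of 16 prostate and keratin genes, among them Pbsn and Tmprss2, did not pass the filter. Krt8, a keratin of luminal epithelium, was at 337, 62.1 and 89.9 CPM in Control and at 26.2, 30.9 and 44.8 CPM in ASC tumors (-2.26 ± 0.49, adjusted p = 0.057) and was not called. Every ASC tumor lay below every Control tumor, and without Control replicate 1 the change was -1.15 with an adjusted p of 0.0269. The keratin gene Krt18 had a log2 fold change of -3.79 (adjusted p = 0.137). Without Control replicate 1 that of Krt18 was -0.83 (adjusted p = 0.519). Of 14 Ras and MAPK genes none was called (median -0.06), with the growth factors Areg at -0.99 (adjusted p = 0.09) and Ereg at -0.96. Without Control replicate 1, Dusp4, a MAPK phosphatase named after its values were seen, was called lower (-1.02, adjusted p = 0.0478). Proliferation genes (19 tested, median 0.15) had no call, with Mki67 at -0.20. Of 13 genes of hypoxia and glycolysis none was called (median -0.07), and Egln3, an oxygen sensor that hypoxia induces, fell by 0.50 on the log2 scale (adjusted p = 0.0407), less than the minimum fold change.

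Only 3 genes were called lower. Clu, a secreted chaperone, was at 183, 96.3 and 94.9 CPM in Control and at 40.4, 56.8 and 44.8 CPM in ASC tumors (-1.40 ± 0.27, adjusted p = 0.0333). Atp6v0d2, a proton pump subunit of osteoclasts and macrophages, was at 4.22, 3.20 and 4.38 CPM and at 1.52, 1.74 and 0.909 CPM (-1.50 ± 0.29, adjusted p = 0.0299). Eml5, a gene of the microtubule-binding EML family, was at 124, 102 and 100.4 CPM and at 69.4, 60.4 and 61.0 CPM (-0.77 ± 0.15, adjusted p = 0.0299). In each gene the groups were apart. Clu was highest in Control replicate 1, and without that tumor the adjusted p-values were 0.0639, 0.0586 and 0.0718.

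The same implants in mice that drank iAs gave a comparison in 6 other tumors. ASC_As300 tumors had 165 genes called higher (0.793%) and 13 called lower (0.0624%) against As300 tumors. Of the 147 genes called higher in ASC against Control, 113 were called higher there as well, none was called lower, and 145 had a log2 fold change above 0, against 50% of all genes tested. Every ASC_As300 tumor was above every As300 tumor in 140 of them, against 11.3% of all genes, and below in 1, Tpgs1, against 8.37%. In 141 the unadjusted p was under 0.05 in the higher direction, against 6.33%. Their median log2 fold change was 1.36 without iAs and 1.29 with it. The genes were selected on the comparison without iAs, so these medians do not compare like with like. Gbp2 stood at 27.8, 17.9 and 26.2 CPM in As300 and at 308, 395 and 360 CPM in ASC_As300 tumors, and Irf1 at 53.2, 51.5 and 59.6 CPM and at 155, 188 and 173 CPM. In both genes the groups did not overlap. Ifng, not called in either comparison, had 1.86, 2.21 and 3.52 CPM in ASC_As300 tumors against 0.30, 0 and 0.406 CPM in As300 tumors.

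The difference between the ASC effects with and without iAs was tested directly by the interaction. No gene was called in that test by edgeR, where the smallest adjusted p was 0.309 and 1473 genes had a higher and 1363 a lower ASC effect with iAs at an unadjusted p under 0.05, while DESeq2 called 174. Of the 147 genes, 20 had an unadjusted interaction p under 0.05, which is 13.6%, and so had 13.6% of all genes tested. In 7 of the 20 the ASC effect was larger with iAs, with interaction terms from 0.41 for Erap1 to 2.51 for Ido1, and with Cd274 (0.70), Gbp7 (0.83), Apol6 (1.21), Klrc1 (1.21) and Nlrc5 between them. In the other 13 it was smaller. These included Tpgs1, a subunit of the tubulin polyglutamylase, and Cebpb, a transcription factor of myeloid cells. Tpgs1 rose from 11.7, 11.7 and 11.5 CPM to 17.9, 17.4 and 21.1 CPM without iAs, and went from 20.8, 24 and 25.4 CPM to 15.9, 17.2 and 18.3 CPM with it. Cebpb rose by 0.80 without iAs and had a log2 fold change of -0.34 with it. The complement genes C1qa, C1qb and C1qc, higher by 0.81 to 0.83 without iAs, had log2 fold changes of 0.28, 0.39 and 0.32 with it and were not called. None of these differences passed the adjustment over all genes.

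**Figure D5:**
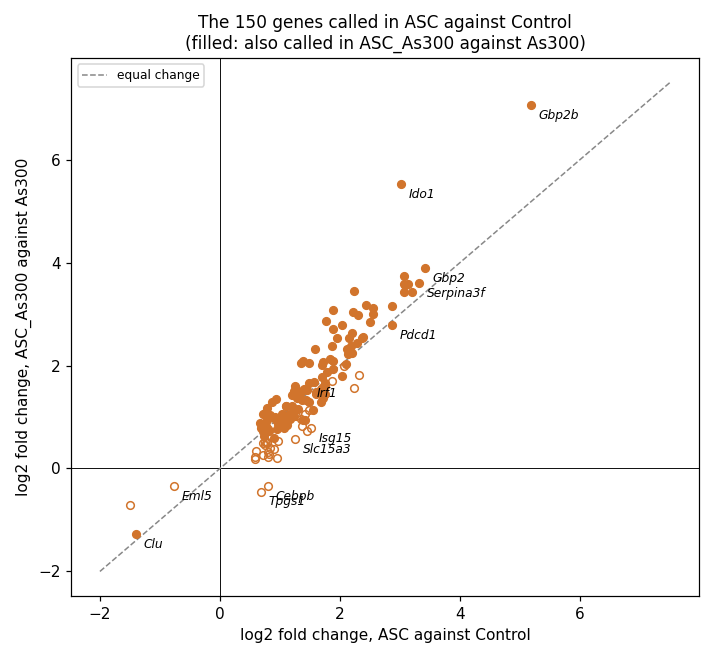
Log2 fold change of ASC against Control (x axis) and of ASC_As300 against As300 (y axis) for the 150 genes called in the first comparison, 1 point per gene, filled where also called in the second. Most points lie near the dashed line of equal change, with Tpgs1 and Cebpb below 0 on the y axis.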

How the data were processed

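RNA from 12 tumors in 4 groups of 3 was sequenced as stranded, paired-end poly(A) libraries. According to the labels and the study's methods, the authors trimmed reads with cutadapt 1.1.0, aligned them with HISAT2 2.0 and assembled and quantified transcripts with StringTie 1.3.4, gffcompare and Ballgown, and they deposited whole-number counts per Ensembl gene without normalization. The step that made the counts, the genome build and the annotation are not given in the sources used here. Among low values, multiples of 4 occurred more often than the numbers next to them, and 12 counts in each tumor were taken as the limit under which a group counts as not detected (counting error only, since reads carry no molecular identifiers).

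The counts were tested in R 4.3.3 with edgeR 4.0.16 (filterByExpr by group, TMM, 1 mean per group over all 12 tumors, quasi-likelihood F test, Benjamini-Hochberg adjustment). Log2 CPM carries a prior count of 2, and symbols came from the GENCODE M21 annotation, which gave 55141 of 55401 genes a symbol. The procedure was tested on simulated data. Pairs of replicates in a group differed by more than sampling noise, and no tumor was left out. A few genes are not reported here by name.

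The comparison, the gene lists and the genes named were chosen with earlier results of these data known. Genes were chosen for naming by a rule. It took the 12 calls with the smallest p in each direction, the 10 with the largest fold change and the 5 most abundant. It also took up to 8 called or 4 uncalled members of each list, and all genes the study measured. Not every gene chosen by the rule is described in the text. Members given beyond that, among them the interferon-gamma receptor and kinase genes, Cd74, Ciita, Cxcr3, Cd8a, Cd3e, Nkg7, Gzmb, Acod1, Pdgfra, Dcn, Ifit2, Wars, Cd79a, Myh4, Adipoq, Ly6c1, Tpgs1 and Cebpb, were chosen after their values were seen. Alternatives were DESeq2 1.42.0, its size factors, other filters, the 6 tumors alone, a replicate block, counts divided by 4, a GC correction, no fold minimum, leaving out each tumor, and the bases before the start site alone for promoters.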

Additional observations from a re-analysis of the deposited data

How the results depend on the processing

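Genes called higher in ASC against Control numbered 373 with DESeq2, 87 with the 6 tumors alone and 100 to 298 without 1 tumor of the 12, against 147. Genes called lower, 3 in the report, numbered 77 with DESeq2, 11 with at least 10 counts in every tumor, 9 with counts divided by 4, 8 with the GC correction, 7 without a fold minimum and 1 to 57 without 1 tumor. DESeq2 set no adjusted p for 19797 genes, and 146 of the 147 genes were among its calls. Both extremes of the higher calls came from ASC tumors, 298 without ASC replicate 1 and 100 without ASC replicate 2, and 212 were called without Control replicate 1. In ASC_As300 against As300, genes called higher numbered 308 with DESeq2 and 92 to 231 without 1 tumor, against 165, and genes called lower numbered 91 with DESeq2, 42 with the 6 tumors alone and 1 to 46 without 1 tumor, against 13. The interaction had 174 calls with DESeq2 and 0 to 1 without 1 tumor. The causes of these differences were not tested. Leaving out Control replicate 1 and ASC replicate 2 together, an alternative chosen after seeing the data, gave 140 higher and 7 lower calls, with 94 of the 147 genes still called, and 44 lower calls in ASC_As300. With the replicate number as a block, 146 genes were called higher and 2 lower in ASC against Control and 6 lower in ASC_As300 against As300. The labels do not say whether the replicate numbers pair the tumors, and this was not tested. Same-numbered Control and ASC tumors deviated from their groups with correlations of -0.02, 0.08 and 0.06, which are given as a description only. No gene called in ASC against Control reversed its direction, which groups that do not overlap could hardly do when 1 tumor is left out. All other alternatives left these counts of calls within 1.5 times. The median log2 fold change of 13 of the 44 lists changed sign without 1 Control or ASC tumor. Without Control replicate 1 it went from -2.72 to 0.34 for B cells, from -1.13 to 1.94 for plasma cells and from -0.37 to 0.79 for neutrophils. Without Control replicate 2 it went from -1.81 to 5.20 for skeletal muscle, and without ASC replicate 2 from 0.17 to -2.28 for adipocytes, from 0.12 to -0.49 for red blood cells, from 0.11 to -0.29 for M2-type activation and from 0.37 to -0.11 for complement. The other changes of sign were between medians of -0.23 and 0.30. For promoters, the bases before the start site alone gave the ISRE letters in 29.6% and the GAS letters in 16.7% of genes called higher, against 3.35% and 7.21% of all genes tested. For named genes, 3705 values under an alternative kept their side of the threshold, 184 lost it and 58 gained it. Ifng, with an adjusted p of 0.0563 in the report, was called with the 6 tumors alone (0.0218), with counts divided by 4 (0.0108), with the GC correction (0.0473) and without As300 replicate 2 (0.00162). The highest of its adjusted p-values was 0.206, without Control replicate 3, and DESeq2 set none.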

Other observations

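Of the 147 genes called higher in ASC tumors, 68 were in none of the gene lists. The serine protease inhibitor gene Serpina3f stood at 1.74, 0.499 and 0.955 CPM in Control and at 12, 8.55 and 11.4 CPM in ASC tumors, a log2 fold change of 3.32 ± 0.36 (edgeR adjusted p = 0.000628), and its neighbor Serpina3g rose by 2.44. Both resemble each other in sequence, and their separate values are uncertain. Batf2, a transcription factor of activated myeloid cells, rose from 1.88, 1.71 and 0.803 CPM to 13.1, 7.61 and 11.3 CPM (2.86 ± 0.37, adjusted p = 0.00189). Il15ra, which presents interleukin-15 to lymphocytes, rose by 1.24, and Samhd1, which depletes nucleotides and so restricts viruses, by 0.71.

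A few genes outside the interferon response were among the calls. Fst, the secreted activin antagonist follistatin, was at 9.01, 11.2 and 11.5 CPM in Control and at 36.0, 23.2 and 34.3 CPM in ASC tumors (1.56 ± 0.20, edgeR adjusted p = 0.00201), and in mice on iAs at 13.4, 13.6 and 9.09 CPM and at 40.4, 32.3 and 42.3 CPM. Tubb3, a tubulin known from neurons that many tumors also make, was at 27.8, 26.0 and 30 CPM and at 70.3, 60.1 and 93.1 CPM (1.42 ± 0.19, adjusted p = 0.00245). Of 13 neuronal and synaptic genes none was called. Their median was 0.81, against -0.00 over all genes tested, and 12 of them were higher in ASC tumors. In ASC_As300 against As300 tumors the median of this list was -1.01, in the other direction. Other lists without a call were those of skeletal muscle (11 tested, median -1.81, and 5.20 without Control replicate 2, whose summed level was 1848 CPM against 2.81 and 7.96 CPM in the other Control tumors), TGF-beta (10 tested, -0.07), skin keratinocytes (5 tested, 0.28), red blood cells (5 tested, 0.12) and reference genes (8 tested, 0.15). These genes were chosen after their values were seen.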
